A study of Mus musculus with 75 samples.

Results

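The genes described here are 10 members of the NF-kB pathway, namely Nfkbia, Nfkbie, Nfkbiz, Nfkbid, Tnfaip3, Tnip1, Bcl3, Nfkb1, Nfkb2 and Relb. They were chosen by symbol, and each is a single row of both deposited count tables, 10 of 21051 symbols in the table of untreated and 2 h samples and 10 of 21076 in the 24 h table. All 10 passed the filter on low counts in each experiment. The series profiled cells labelled as enteric glial cells, the glia of the gut wall, in 75 RNA-seq libraries from mice that all carry an eGFP (green fluorescent protein) reporter allele. Untreated adult mice with the reporter, whose genotype label names no Gpr37 allele and whose samples are marked WT, gave the myenteric and the submucosal plexus of the small intestine (6 libraries each) and of the colon (5 each). Mice of that same genotype injected once into the peritoneum with PBS, or with LPS (E. coli O111:B4 endotoxin) at 2 mg/kg in PBS, gave the myenteric plexus of both regions 2 h later, with 4 libraries per region and treatment. At 24 h after the same injections the myenteric plexus came from reporter mice labelled Gpr37WT (wild type below) and from reporter mice labelled Gpr37-/- (knockout below), which lack the orphan receptor gene Gpr37. The small intestine then gave 6 PBS and 4 LPS wild-type libraries and 4 PBS and 5 LPS knockout libraries, and the colon 4 PBS and 5 LPS wild-type libraries and 5 PBS and 4 LPS knockout libraries. Both sexes were used, the age is given only as adult, and the way the cells were isolated is not given in the sources used here.

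NF-kB is a family of dimeric transcription factors that waits in the cytoplasm, bound by inhibitory IkB proteins, until a receptor such as the LPS receptor triggers destruction of the inhibitor. The freed dimers enter the nucleus and switch on inflammatory genes together with their own brakes: cytoplasmic inhibitors that pull the dimers back, nuclear IkB-like proteins that adjust which targets are read, and ubiquitin-editing proteins that shut the receptor signal down. Several subunit genes are also targets, so transcripts of subunits and inhibitors are widely used as a sign of NF-kB activity. In the gut, glia surround the neurons of the enteric plexuses and are known to respond to bacterial products and cytokines.

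Total counts per library were 2547296 to 9002546 in untreated mice, 1990744 to 7883251 at 2 h and 2882539 to 33283346 at 24 h. Markers of glia (7 genes, among them Sox10 and S100b) summed to 6195 to 12967 CPM (counts scaled to library size) in untreated colon and 8799 to 13644 CPM in untreated small-intestinal myenteric plexus, to 1127 to 5579 and 522 to 1949 CPM in the submucosal plexus of the same regions, to between 2418 and 8394 CPM at 2 h and to between 1281 and 16857 CPM at 24 h, and all 7 had counts in every group. Lymphocyte markers reached 44950.0 CPM in colon and 131765 CPM in small-intestinal submucosal plexus. The libraries also held RNA of other cells, with smooth-muscle markers summing to 1253 to 72124 CPM at 2 h. Of the 18 knockout libraries 17 had 3 or fewer Gpr37 counts and the highest had 9. At 24 h 4 libraries labelled wild type were as low, all with LPS: those of mouse 3 in both regions (0 and 2 counts) and the colon libraries of mice 5 and 8 (0 counts each), where mouse 5 has no other library and mouse 8 had 100 counts in small intestine. Such low counts were also found in mice marked WT outside that experiment, in 2 of 4 PBS and 3 of 4 LPS colon libraries and 1 of 4 small-intestinal LPS libraries at 2 h, and untreated in 2 of 5 colon myenteric, 3 of 5 colon submucosal and 6 of 6 small-intestinal submucosal libraries. No genotype was assigned from these counts, wild type below means so labelled, and the main results at 24 h are also given without mouse 3. Altogether 4 colon libraries at 24 h stood apart by more than 1000 CPM of epithelial or lymphocyte markers (mice 3 and 8, labelled wild type, with LPS, and mice 20 and 7, knockout, with PBS). The main colon results at 24 h are given without them too. Mitochondrial genes took a median of 15.4% of counts (4.24 to 26.0%) in the 12 libraries from mice 1 to 10 at 24 h, and 4.57% (1.66 to 10.4%) in the 25 from higher-numbered mice. In such bulk samples fewer cells of a type and less RNA per cell cannot be told apart, and where the labels do not name a mouse the p-values measure only the spread between libraries.

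Promoter sequence is shown for the members because NF-kB binds a known DNA element, the kB consensus, and the members were searched for it in the 250 bases upstream of each RefSeq transcript start (GRCm38.p6, both strands). RefSeq promoters matched 7 of the 10 members (12 windows), and 6 of these 7 (85.7%) held the kB consensus in at least 1 window, against 4.46% of 27025 genes and 3.9% of all 32851 windows. Bcl3 was the member with a promoter window and no match. Nfkbiz, Nfkb1 and Relb had no entry in the promoter set used and were not searched. Among NF-kB target genes listed from textbook knowledge, 9 of 23 with an entry (39.1%) held it. A match is a description of the sequence and not a measured binding site. The 3 whole windows below are those of the cytoplasmic inhibitors Nfkbia and Nfkbie and of Tnip1, the member called in all 6 LPS comparisons, written 5′ to 3′ on the strand of the gene with the match in capitals (overlapping matches run together in Tnip1).

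Nfkbia promoter (minus strand), chr12:55492648-55492897: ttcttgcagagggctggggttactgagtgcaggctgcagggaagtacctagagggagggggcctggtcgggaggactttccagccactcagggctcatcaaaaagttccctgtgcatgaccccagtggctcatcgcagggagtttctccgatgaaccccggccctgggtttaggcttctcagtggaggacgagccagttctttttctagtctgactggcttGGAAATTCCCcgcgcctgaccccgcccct
Nfkbie promoter (plus strand), chr17:45555450-45555699: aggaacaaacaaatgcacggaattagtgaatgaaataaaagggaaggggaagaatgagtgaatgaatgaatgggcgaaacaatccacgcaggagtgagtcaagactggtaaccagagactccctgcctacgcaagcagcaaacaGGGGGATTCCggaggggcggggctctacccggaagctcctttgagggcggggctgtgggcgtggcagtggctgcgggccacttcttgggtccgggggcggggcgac
Tnip1 promoter (minus strand), chr11:54962941-54963190: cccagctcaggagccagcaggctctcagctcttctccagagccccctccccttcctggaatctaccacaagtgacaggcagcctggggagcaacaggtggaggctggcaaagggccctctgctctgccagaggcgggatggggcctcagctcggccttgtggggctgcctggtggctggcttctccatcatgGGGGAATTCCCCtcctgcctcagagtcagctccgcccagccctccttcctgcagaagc

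In Nfkbia the match ended 20 bases before the transcript start, in Nfkbie 97 bases before it, and in Tnip1 3 overlapping matches lay between 58 and 47 bases upstream. None of these 3 windows overlapped an exon of its own gene in the GENCODE annotation, and exons of other genes were not checked. Shorter stretches with a match in capitals are given for Tnfaip3, which had the largest called log2 fold changes among the members at 2 h, and for the subunit gene Nfkb2 and the nuclear inhibitor gene Nfkbid.

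Tnfaip3 site 125 bases upstream (minus strand), chr10:19015516-19015545: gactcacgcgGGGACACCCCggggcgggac
Tnfaip3 site 12 bases upstream (minus strand), chr10:19015411-19015432: aatttccatcGGAAATCCCCct
Nfkb2 site 39 bases upstream (plus strand), chr19:46304688-46304717: ggatcgtcacGGGAATTCCCcccctcgggg
Nfkb2 site 225 bases upstream (plus strand), chr19:46305695-46305724: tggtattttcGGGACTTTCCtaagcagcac
Nfkbid site 226 bases upstream (plus strand), chr7:30422170-30422199: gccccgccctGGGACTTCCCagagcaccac
Nfkbid site 181 bases upstream (plus strand), chr7:30422215-30422244: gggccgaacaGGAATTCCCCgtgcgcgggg

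The Tnfaip3 window held 2 matches, at 125 and 12 bases upstream. For Nfkb2 the matches at 39 bases and at 225 bases belong to different transcript starts, and both Nfkbid matches belong to the second of 3 starts. The Nfkb2 window of the 39-base match lies within annotated exons of its own gene (250 of 250 bases). So do most of the window of the 225-base match (234 of 250) and part of the Tnfaip3 window (110 of 250).

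The 2 h samples ask how the myenteric cells respond early to LPS, in each region. At 2 h 7 of the 10 members rose with LPS in small intestine and 6 in colon, all 6 shared, and none fell. The largest called changes were in Tnfaip3 and Bcl3, while the subunit gene Nfkb1 did not pass the test in either region. Across all genes tested the background was 1.1% called (1.08% higher) in small intestine and 0.778% (0.74% higher) in colon. PBS and LPS libraries did not overlap for 9 of 10 members in small intestine, against 5.49% of all genes, and for 8 of 10 in colon, against 3.85%. Calls here and below are at an adjusted p under 0.05 in the quasi-likelihood test of edgeR (Benjamini-Hochberg adjustment, all genes tested), and changes are log2 fold changes ± SE. The per-library levels are in CPM with TMM-scaled library sizes.

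**Figure D1:**
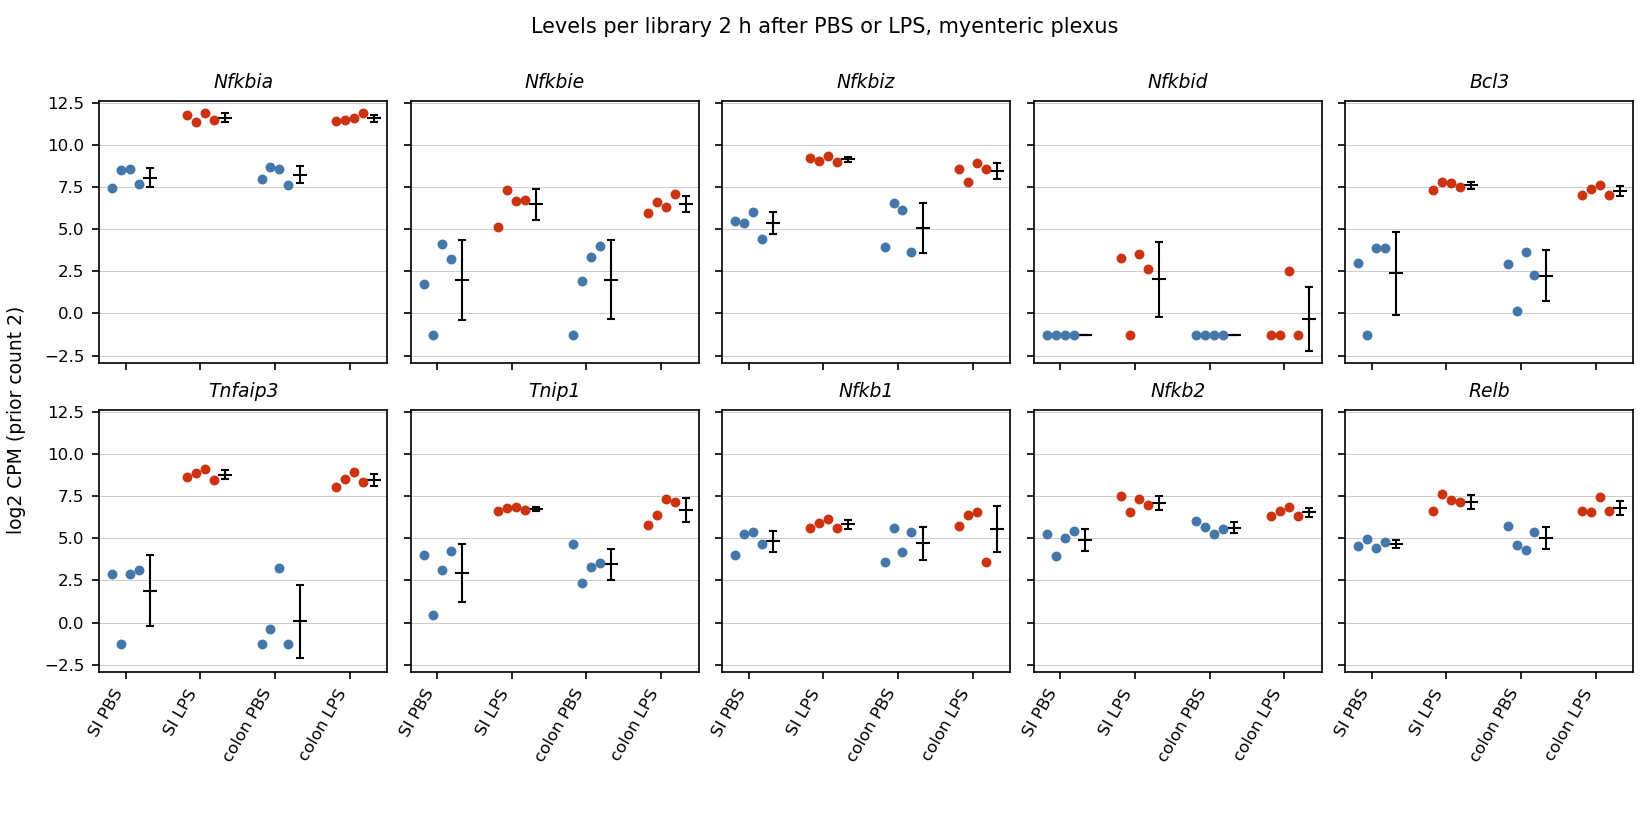
Level of each member in log2 CPM (prior count 2) in each library 2 h after PBS (blue) or LPS (red), in small intestine (SI) and the colon, myenteric plexus; points are libraries, and the black marks are the mean and SD of 4. LPS libraries stand above PBS libraries without overlap for 9 of 10 members in small intestine and 8 of 10 in colon.

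Nfkbia (chr12:55489410-55492647, minus strand) encodes IkB-alpha, the classical cytoplasmic inhibitor that is destroyed and then made again in each round of signalling. In small intestine its level was 176, 369, 378 and 203 CPM with PBS and 3479, 2615, 3836 and 2807 CPM with LPS. The colon gave 247, 418, 375 and 199 CPM with PBS and 2731, 2830.5, 3059.9 and 3769 CPM with LPS. Every LPS library was far above every PBS library, and the smallest LPS value exceeded the largest PBS value in both regions. Nfkbia rose by 3.50 ± 0.31, adjusted p = 1.56e-05 in small intestine and 3.32 ± 0.31, adjusted p = 2.25e-05 in colon.

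Nfkbie (chr17:45555703-45563169, plus strand) encodes IkB-epsilon, a slower cytoplasmic inhibitor. With PBS it stood at 2.87, 0, 17.3 and 8.98 CPM in small intestine and at 0, 3.4, 9.67 and 15.4 CPM in colon. With LPS the levels were 35.1, 163, 100.4 and 106 CPM in small intestine and 60.6, 97.6, 78.9 and 137 CPM in colon. The groups did not overlap in either region, but the PBS libraries spread from 0 upward and the change did not pass the test (3.74 ± 1.01, adjusted p = 0.131 in small intestine and 3.71 ± 1.02, adjusted p = 0.173 in colon). DESeq2 called Nfkbie in both regions (adjusted p = 0.00525 and 0.00643).

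Nfkbiz (chr16:55811375-55838899, minus strand) encodes IkB-zeta, a nuclear protein needed for a second wave of targets such as Il6 and Lcn2. Small-intestinal levels were 44.8, 41.4, 63.8 and 21.3 CPM with PBS and 586, 518, 644 and 511 CPM with LPS. Colon levels were 14.7, 92.4, 69.4 and 12.2 CPM with PBS and 374, 219, 492 and 379 CPM with LPS. PBS and LPS libraries were separate in both regions, and Nfkbiz rose by 3.72 ± 0.56, adjusted p = 0.00115 in small intestine and by 2.96 ± 0.55, adjusted p = 0.0114 in colon. The colon call was lost in the fit of the colon groups alone (adjusted p = 0.101).

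Bcl3 (chr7:19808462-19822770, minus strand) encodes a nuclear IkB family member that binds NF-kB homodimers. It was at 7.51, 0, 14.5 and 14.1 CPM with PBS and 159, 223, 216 and 180.5 CPM with LPS in small intestine. In colon it was at 7.23, 0.679, 12 and 4.37 CPM with PBS and 132, 166, 199 and 129 CPM with LPS. Every LPS library lay well above every PBS library in each region. Bcl3 rose by 4.38 ± 0.75, adjusted p = 0.00361 in small intestine and by 4.68 ± 0.77, adjusted p = 0.00431 in colon.

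Nfkbid (chr7:30421732-30428746, plus strand), which encodes the nuclear inhibitor IkBNS, was the least abundant member. No PBS library of either region had a count, which allows up to 0.359 to 1.46 CPM at 3 counts per library across the 2 h libraries. With LPS the small intestine gave 9.28, 0, 10.9 and 5.69 CPM and the colon 0, 0, 5.34 and 0 CPM. Set against 3 counts per library with PBS, the mean LPS level of Nfkbid was 8.39 times that floor in small intestine and 1.57 times in colon. In small intestine 3 of 4 LPS libraries had counts, and in colon 1 did, with 13 counts. The groups overlapped in both regions, and neither change passed the test (adjusted p = 0.541 and 0.685).

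Tnfaip3 (chr10:19000910-19015657, minus strand) encodes a ubiquitin-editing enzyme that ends signalling from the TNF and Toll-like receptors. With PBS the small-intestinal libraries had 6.85, 0, 7.03 and 8.26 CPM and with LPS 401, 473, 546 and 354 CPM. In colon, PBS libraries had 0, 0.34, 9 and 0 CPM and LPS libraries 264, 362, 483 and 318 CPM. This gene went from near absence in PBS libraries to a high level in every LPS library. It rose by 6.24 ± 0.99, adjusted p = 0.00183 in small intestine and 7.35 ± 1.07, adjusted p = 0.00178 in colon. The colon size rests on PBS replicate 3, the library with 9 CPM, without which the log2 fold change was 11.62 (leaving out each library in turn gave no value below 6.89).

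Tnip1 (chr11:54910785-54962917, minus strand) encodes a ubiquitin-binding protein that works with the product of Tnfaip3. Small-intestinal values were 15.5, 0.975, 8.23 and 18.2 CPM with PBS and 98, 112, 117 and 102 CPM with LPS. For the colon they were 24.5, 4.76, 9.34 and 11.3 CPM with PBS and 54, 84.4, 163 and 144 CPM with LPS. Treatments were separate in both regions, and the small-intestinal LPS libraries lay close together. Tnip1 rose by 3.29 ± 0.63, adjusted p = 0.0103 in small intestine and 3.15 ± 0.63, adjusted p = 0.0228 in colon. The colon call held in 3 of 8 fits that each left out 1 library, with log2 fold changes of 2.88 to 3.71, and was lost without PBS replicate 2, 3 or 4 or LPS replicate 3 or 4.

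Among subunits, Relb (chr7:19606217-19629438, minus strand) encodes the activating partner of the alternative NF-kB pathway. Its small-intestinal levels were 22.5, 31.2, 21.1 and 26.7 CPM with PBS and 96.7, 198, 154 and 144 CPM with LPS, and it rose by 2.55 ± 0.36, adjusted p = 0.00066. Colon levels of Relb were 53.2, 23.8, 19.3 and 41.6 CPM with PBS and 96.3, 95.2, 173 and 95.9 CPM with LPS, and it rose by 1.74 ± 0.35, adjusted p = 0.0245. The colon call of Relb held in 4 of 8 fits that left out 1 library and was lost without PBS replicate 2, 3 or 4 or LPS replicate 3 (log2 fold changes 1.47 to 2.02). It was also lost in the fit of the colon groups alone (adjusted p = 0.151) and with the replicate number as a block (adjusted p = 0.071).

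Nfkb2 (chr19:46304320-46312385, plus strand) encodes the precursor that is processed in the alternative pathway. Its small-intestinal levels were 37.1, 15.1, 31.9 and 43.6 CPM with PBS and 182, 94.7, 159 and 128 CPM with LPS, and it rose by 2.13 ± 0.33, adjusted p = 0.00147. Nfkb2 in colon was at 65.3, 49.9, 38.3 and 46.4 CPM with PBS and 80.5, 99, 117 and 80.1 CPM with LPS. The colon groups were separate but the change did not pass the test (0.91 ± 0.32, adjusted p = 0.419).

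Nfkb1 (chr3:135584655-135691547, minus strand) encodes the precursor of the classical pathway's DNA-binding subunit. In small intestine it was at 15.7, 38, 41.4 and 24.7 CPM with PBS and 48.6, 60.3, 70.9 and 47.8 CPM with LPS, with no overlap, yet the change did not pass (0.93 ± 0.56, adjusted p = 1). The colon values overlapped, at 11.4, 48.2, 18 and 41.8 CPM with PBS and 51.7, 83.8, 95.7 and 11.6 CPM with LPS (1.02 ± 0.56, adjusted p = 0.791).

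The response to LPS was then compared between regions as an interaction, the colon change minus the small-intestinal change. No member passed that test in edgeR's quasi-likelihood fit (0 of 10, against 0% of all genes), and 1 member was under an unadjusted p of 0.05, against 3.45% of all genes. That member was Nfkb2, whose colon change was lower by 1.22 ± 0.45 on the log2 scale (95% interval -2.18 to -0.27, adjusted p = 0.9999). DESeq2 called 0 of 10 members, against 0.403% of all genes. The 95% intervals were -1.02 to 0.67 for Nfkbia and -2.83 to 2.75 for Nfkbie, so regional differences of that size were not resolved, and Nfkbid, without a count in any PBS library, gave no usable interval.

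Markers of infiltrating cells were checked beside the early changes. Of the 10 macrophage markers 0 were called by edgeR or DESeq2 in either region at 2 h (0 in small intestine and 1 in colon under an unadjusted p of 0.05), with summed levels of 283 to 1768 CPM with PBS and 239.6 to 1355 CPM with LPS in small intestine and 314 to 1592 and 191 to 590.2 CPM in colon. The 8 neutrophil markers summed to 0 to 2.21 CPM with PBS and 0 to 158 CPM with LPS in small intestine, and to 0.919 to 7.67 and 0 to 5.8 CPM in colon, where Ngp, Retnlg, Ly6g, Mmp8 and Cxcr2 were at 0 in all 4 LPS libraries. Lymphocyte markers in small intestine summed to 6.42 to 18.6 CPM with PBS and 18.4 to 915 CPM with LPS, with 1 of the 2 markers that passed the filter called higher, and their part in the changes was not tested.

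At 24 h 6 of 10 members were called above PBS in wild-type small intestine and 7 in wild-type colon, 6 of them in both regions, and none was lower. Of these, 5 in small intestine and 6 in colon had also been called at 2 h. The 6 were Nfkbia, Nfkbie, Tnfaip3, Tnip1, Bcl3 and Relb, with Nfkbiz added in colon. Background calls were 7.17% of all genes (4.18% higher) in small intestine and 7.96% (3.96% higher) in colon. PBS and LPS libraries were separate for 6 of 10 members in small intestine, against 13.4% of all genes, and for 5 of 10 in colon, against 13.5%. The median log2 fold change of all genes in wild-type small intestine was -0.13, so changes there are read against that value.

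**Figure D2:**
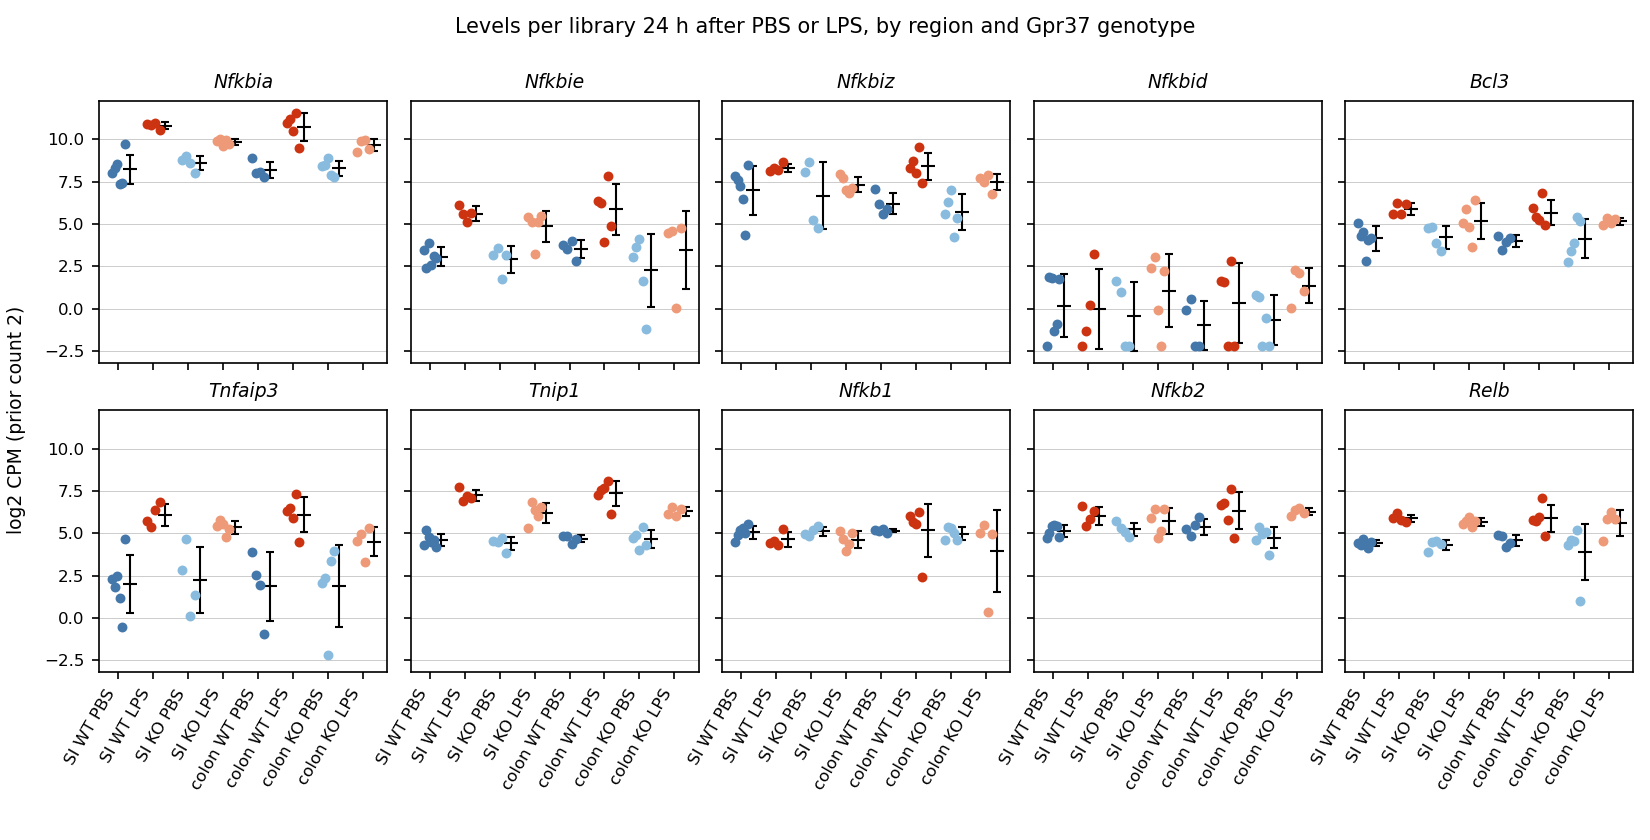
Level of each member in log2 CPM (prior count 2) in each library 24 h after PBS (blue) or LPS (red), by region and Gpr37 genotype (paler points for the knockout); black marks are the mean and SD of the group's 4 to 6 libraries. Nfkbia and Tnip1 stand above PBS after LPS in all 4 settings without overlap.

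Nfkbia in wild-type small intestine was at 167 at the lowest, 284 at the median and 843 CPM at the highest with PBS and at 1964, 1849, 1983 and 1482 CPM with LPS. Wild-type colon gave 478, 261, 274 and 221 CPM with PBS and 2034, 2339, 1429, 3068 and 708 CPM with LPS. The treatments were separate, though the colon LPS libraries spread widely, from 708 CPM in mouse 8 to 3068 CPM in mouse 5. Nfkbia rose by 2.36 ± 0.36, adjusted p = 4.37e-05 in small intestine and 2.64 ± 0.40, adjusted p = 0.000146 in colon, and both calls held in every alternative fit that was run.

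Tnip1 had the smallest p of the members in both wild-type regions. It stood at 18 at the lowest, 23.4 at the median and 36.5 CPM at the highest with PBS and 211, 119.6, 146 and 138 CPM with LPS in small intestine. Wild-type colon had 28.6, 28.3, 20.7 and 25 CPM with PBS and 155, 189, 205, 277 and 70.7 CPM with LPS. Tnip1 rose by 2.63 ± 0.30, adjusted p = 4.86e-07 and 2.81 ± 0.34, adjusted p = 5.88e-06 in that order, with no overlap, and both calls held in every alternative fit that was run. Its partner Tnfaip3 was at 0.481 at the lowest, 4 at the median and 25 CPM at the highest with PBS and 53.4, 40.6, 82.4 and 113 CPM with LPS in small intestine, where it rose by 3.39 ± 0.91, adjusted p = 0.0177. Colon values of Tnfaip3 were 14.8, 5.67, 3.58 and 0.289 CPM with PBS and 78.6, 89.9, 60.4, 158 and 22.4 CPM with LPS, a rise of 3.76 ± 1.06, adjusted p = 0.0256. The LPS libraries lay above every PBS library in both regions. Without the highest PBS library the Tnfaip3 changes were 4.54 in small intestine (replicate 6) and 4.71 in colon (replicate 1). The colon call of Tnfaip3 was lost in the fit of the compared groups alone (adjusted p = 0.0539).

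Nfkbie, called at 2 h by DESeq2 alone, was called at 24 h in edgeR's test. Its levels were 5.09 at the lowest, 8.17 at the median and 14.4 CPM at the highest with PBS and 70.5, 47.7, 34.1 and 49.6 CPM with LPS in small intestine, without overlap, and it rose by 2.53 ± 0.69, adjusted p = 0.0201. In colon it was at 13.6, 11.2, 15.9 and 6.85 CPM with PBS and 83.4, 76.8, 15.3, 229 and 29.1 CPM with LPS, a rise of 2.86 ± 0.78, adjusted p = 0.0213. The colon groups overlapped by 1 LPS library, that of mouse 3, at 15.3 CPM, and without LPS replicate 4 (mouse 5) the log2 fold change was 2.10, and 3.45 without the libraries high in epithelial or lymphocyte markers. Without mouse 3 the colon change was 3.14, adjusted p = 0.0139, and in the fit of the compared groups alone the colon call was lost (adjusted p = 0.057).

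Of the genes of nuclear IkB-like proteins, Bcl3 rose by 1.64 ± 0.47, adjusted p = 0.0267 in small intestine and 1.84 ± 0.52, adjusted p = 0.0247 in colon. Small-intestinal Bcl3 was at 6.93 at the lowest, 18.7 at the median and 33.4 CPM at the highest with PBS and 49, 74.2, 47.7 and 72 CPM with LPS, and colon Bcl3 at 19.4, 11, 15.1 and 17.9 CPM and 60.8, 42.9, 37.5, 113 and 30.8 CPM. The treatments were separate in both regions, but in mice numbered 11 and above alone Bcl3 missed the threshold (adjusted p = 0.0537 and 0.0543). Nfkbiz was called in colon, at 132, 73.9, 49.1 and 59.7 CPM with PBS, at 318, 429, 258, 747 and 169.5 CPM with LPS and with a rise of 2.29 ± 0.67, adjusted p = 0.0312. In small intestine its PBS libraries already ran from 20.5 at the lowest, 172 at the median and 365 CPM at the highest, overlapping the LPS libraries at 276, 318, 299 and 402 CPM, and the change was not called (0.90 ± 0.59, adjusted p = 0.399). Nfkbid stayed low in all wild-type libraries at 24 h, with at most 9.06 CPM, and was not called (0.52 ± 1.58, adjusted p = 0.898 and 2.34 ± 1.80, adjusted p = 0.444).

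Relb rose by 1.48 ± 0.40, adjusted p = 0.0198 in wild-type small intestine, from 17.2 at the lowest, 21.5 at the median and 25.5 CPM at the highest with PBS to 60, 71.8, 55.3 and 49.6 CPM with LPS, without overlap. In colon Relb was at 29.2, 28.7, 18.2 and 21.5 CPM with PBS and 54.2, 52.1, 62.7, 134 and 28.5 CPM with LPS, with the LPS library of mouse 8 inside the PBS range, and rose by 1.45 ± 0.44, adjusted p = 0.0379. That colon call held in 3 of 9 fits that left out 1 library and was lost without LPS replicate 3 or 4 or any 1 of the 4 PBS libraries, with log2 fold changes of 1.02 to 1.64, and it was lost in the fit of the compared groups alone (adjusted p = 0.0869). Nfkb2 did not pass in either region, although LPS values were 99.3, 42.3, 56.6 and 78.1 CPM against 26.5 at the lowest, 37.2 at the median and 44 CPM at the highest in small intestine (0.95 ± 0.38, adjusted p = 0.127) and 102, 113, 55, 193 and 26.4 CPM against 38.4, 28.1, 45.2 and 61.2 CPM in colon (1.18 ± 0.41, adjusted p = 0.0643). In colon DESeq2 called Nfkb2 (adjusted p = 0.0211), and it was called in 5 of the 9 alternatives. Nfkb1 was not called either (-0.41 ± 0.51, adjusted p = 0.703 and 0.44 ± 0.52, adjusted p = 0.643).

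The count of 7 in wild-type colon moved with single libraries. Over all genes 551 to 1324 were called when 1 library was left out, against 1186 in the main fit. The member count was 3 without LPS replicate 4 (mouse 5). That library was the highest LPS colon library for all 10 members and 1 of the 4 with low Gpr37. The member count was 2 without PBS replicate 2 or 4 (mice 19 and 24), and 3 without PBS replicate 3 (mouse 22). Bcl3 and Nfkbiz were lost without any 1 of these 4 libraries, Nfkbie without LPS replicate 4 or PBS replicate 2 or 4, and Tnfaip3 without PBS replicate 2, 3 or 4, while Nfkbia and Tnip1 were kept in all 9 such fits. In small intestine 4 to 6 members were called, and 641 to 1057 of all genes against 1069 in the main fit. There Bcl3 was lost without LPS replicate 2 or PBS replicate 4 or 5, Nfkbie without LPS replicate 1 and Relb without LPS replicate 2. Without mouse 3 the counts were 6 in small intestine and 7 in colon, where Nfkb2 passed and Relb did not (adjusted p = 0.0549), and without the colon libraries high in epithelial or lymphocyte markers the colon count was 8. Over all genes 781 and 863 were called without mouse 3, and 823 in colon without the high-marker libraries, against 1069 and 1186 in the main fit. With only the mice numbered 11 and above, 6 and 7 members were called, Nfkb2 in place of Bcl3 in both regions, and 1485 and 1468 of all genes. A fit with a term for that division called 6 and 7, with Nfkb2 in place of Relb in colon (Relb adjusted p = 0.0644). It called 1080 and 843 of all genes. The lower-numbered wild-type mice gave no value of their own, with no PBS library in colon and 1 in small intestine. No member passed the test of a regional difference in the wild-type response (0 of 10 in edgeR's interaction test, against 0% of all genes). In that test 0 members were under an unadjusted p of 0.05, against 7.56% of all genes, and DESeq2 called 0, against 0.793%. For Nfkbiz the difference between regions was 1.39 ± 0.88 (95% interval -0.39 to 3.17).

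Markers of other cells were read beside these changes. In wild-type small intestine 5 of the 7 neutrophil markers that passed the filter were called higher, and the 8 neutrophil markers summed to 7.41 to 841 CPM with LPS against 0 to 3.61 CPM with PBS, where Ly6g and Cxcr2 were at 0. Wild-type colon had 2 of 7 neutrophil markers called higher, at 9.32 to 2315 against 0.0965 to 144 CPM, with Cxcr2 at 0 in both groups. Of the 6 fibroblast markers 3 were called lower in each wild-type region, at 681 to 9900.2 CPM with LPS against 1936 to 13117 CPM in small intestine and 703 to 8977 against 14552 to 23369 CPM in colon, and no fibroblast marker was at 0 in all libraries of a group. Of the 7 glial markers 1 was called higher in small intestine (1735 to 4293 CPM with LPS against 2148 to 9037 CPM with PBS) and 1 lower in colon (1281 to 4713 against 3746 to 6150.2 CPM). Among the 10 macrophage markers 1 was called lower in small intestine and 1 higher in colon, and of the 6 endothelial markers 1 was called lower in colon. Mesothelial markers in small intestine summed to 145 to 321 CPM with LPS against 499 to 2355 CPM with PBS, without overlap, with 0 of 4 called by edgeR, 3 under an unadjusted p of 0.05 and 1 called lower by DESeq2. Markers of interstitial cells of Cajal in colon summed to 24.5 to 149.9 CPM with LPS against 151 to 457 CPM with PBS, also without overlap, with 0 of 3 called by edgeR, 2 under an unadjusted p of 0.05 and 1 called lower by DESeq2. Colon lymphocyte markers summed to 0 to 2646 CPM with LPS against 0.281 to 9.21 CPM with PBS, and colon epithelial markers to 4.55 to 4708 CPM with LPS against 3.37 to 259 CPM with PBS. By edgeR 0 were called in either list, with 2 of each under an unadjusted p of 0.05, and DESeq2 called 2 lymphocyte markers and 1 epithelial marker higher. The part of all these cells in the member changes was not tested.

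In the knockout 1 of 10 members passed the test in each region at 24 h, Tnip1 in both, against a background of 0.718% called in small intestine (0.53% higher) and 0.718% in colon (0.637% higher). Knockout small-intestinal Tnip1 was at 22.8, 22.3, 26.1 and 14.2 CPM with PBS and 38.9, 114, 83, 63.9 and 92 CPM with LPS, a rise of 1.87 ± 0.33, adjusted p = 0.00282. Knockout colon had 26, 29.9, 15.8, 41.2 and 19.8 CPM with PBS and 69.8, 94.2, 65.1 and 86.3 CPM with LPS, a rise of 1.57 ± 0.31, adjusted p = 0.00896. Both rises were without overlap, and both calls were lost in fits of the compared groups alone (adjusted p = 0.0538 and 0.126). Without the 4 libraries high in epithelial or lymphocyte markers edgeR again called Tnip1 alone in colon, with 68 of all genes called against 107. DESeq2 called 3 members in small intestine, Tnip1, Nfkbia (adjusted p = 0.0254) and Relb (0.0292), and 4 in colon, Tnip1, Nfkbia (0.0164), Relb (0.0375) and Nfkb2 (0.0123). Over all genes DESeq2 called 537 in small intestine and 480 in colon, against 107 in each by edgeR. PBS and LPS libraries were separate for 4 of 10 members in small intestine, against 6.6% of all genes, and for 3 of 10 in colon, against 3.44%.

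Nfkbia in the knockout was at 439.5, 516, 387 and 261 CPM with PBS and 979, 1044, 783, 995 and 855 CPM with LPS in small intestine. The knockout colon gave 339.6, 356, 479, 237 and 221 CPM and 624, 976, 1001 and 707 CPM. All LPS libraries were above all PBS libraries in each region, but the changes missed the threshold in edgeR's test (1.22 ± 0.38, adjusted p = 0.136 and 1.34 ± 0.37, adjusted p = 0.0882). Tnfaip3, the receptor-signal terminator, was separate in small intestine (6.83, 25.5, 0.871 and 2.38 CPM with PBS and 43.3, 54.1, 45.8, 27.3 and 37.8 CPM with LPS, 2.23 ± 0.98, adjusted p = 0.355). In the knockout colon the Tnfaip3 groups overlapped (3.89, 4.9, 0, 10.2 and 15.1 CPM with PBS and 22.6, 30.6, 9.65 and 38.7 CPM with LPS, 1.90 ± 0.93, adjusted p = 0.403).

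The subunit gene Relb had knockout log2 fold changes of 1.34 ± 0.44, adjusted p = 0.156 in small intestine and 1.36 ± 0.42, adjusted p = 0.146 in colon, beside 1.48 ± 0.40 and 1.45 ± 0.44 in the wild type. Nfkb2 in knockout colon was at 24.4, 40.5, 30.2, 33.1 and 12.8 CPM with PBS and 63.6, 83.4, 89.5 and 74 CPM with LPS, separate but not called (1.46 ± 0.40, adjusted p = 0.085). In knockout small intestine its levels were 51.9, 39.9, 34.1 and 27.5 CPM with PBS and 59.2, 85.8, 26.1, 34.4 and 85.4 CPM with LPS, overlapping and not called (0.60 ± 0.40, adjusted p = 0.633). For Nfkbie the knockout changes were 2.02 ± 0.76, adjusted p = 0.245 and 1.17 ± 0.72, adjusted p = 0.531, with 1 LPS library of the colon (mouse 2) at 0.804 CPM beside 3 at 22.0 to 26.6 CPM. The log2 fold change of Nfkbiz was -0.14 ± 0.62, adjusted p = 0.976 in small intestine, where 2 PBS libraries were higher than every LPS library, and 1.55 ± 0.62, adjusted p = 0.288 in colon. The remaining members Bcl3, Nfkbid and Nfkb1 were not called, with log2 fold changes from -0.44 to 2.00. Of 7 neutrophil markers tested 1 was called higher in each knockout region, the list summing to 8.52 to 1834 CPM with LPS against 0.156 to 1.39 CPM with PBS in small intestine and 3.14 to 505 against 0.243 to 59.9 CPM in colon. DESeq2 called 6 neutrophil and 2 macrophage markers higher in knockout small intestine, and 5 neutrophil and 1 macrophage marker higher and 2 lymphocyte markers lower in knockout colon. The macrophage sum in knockout small intestine had a median of 1219 CPM with LPS (278 to 2407) against 333 CPM with PBS (50.5 to 516), with 0 of 10 macrophage markers called by edgeR and 5 under an unadjusted p of 0.05. The part of these cells in the member changes was not tested.

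**Figure D3:**
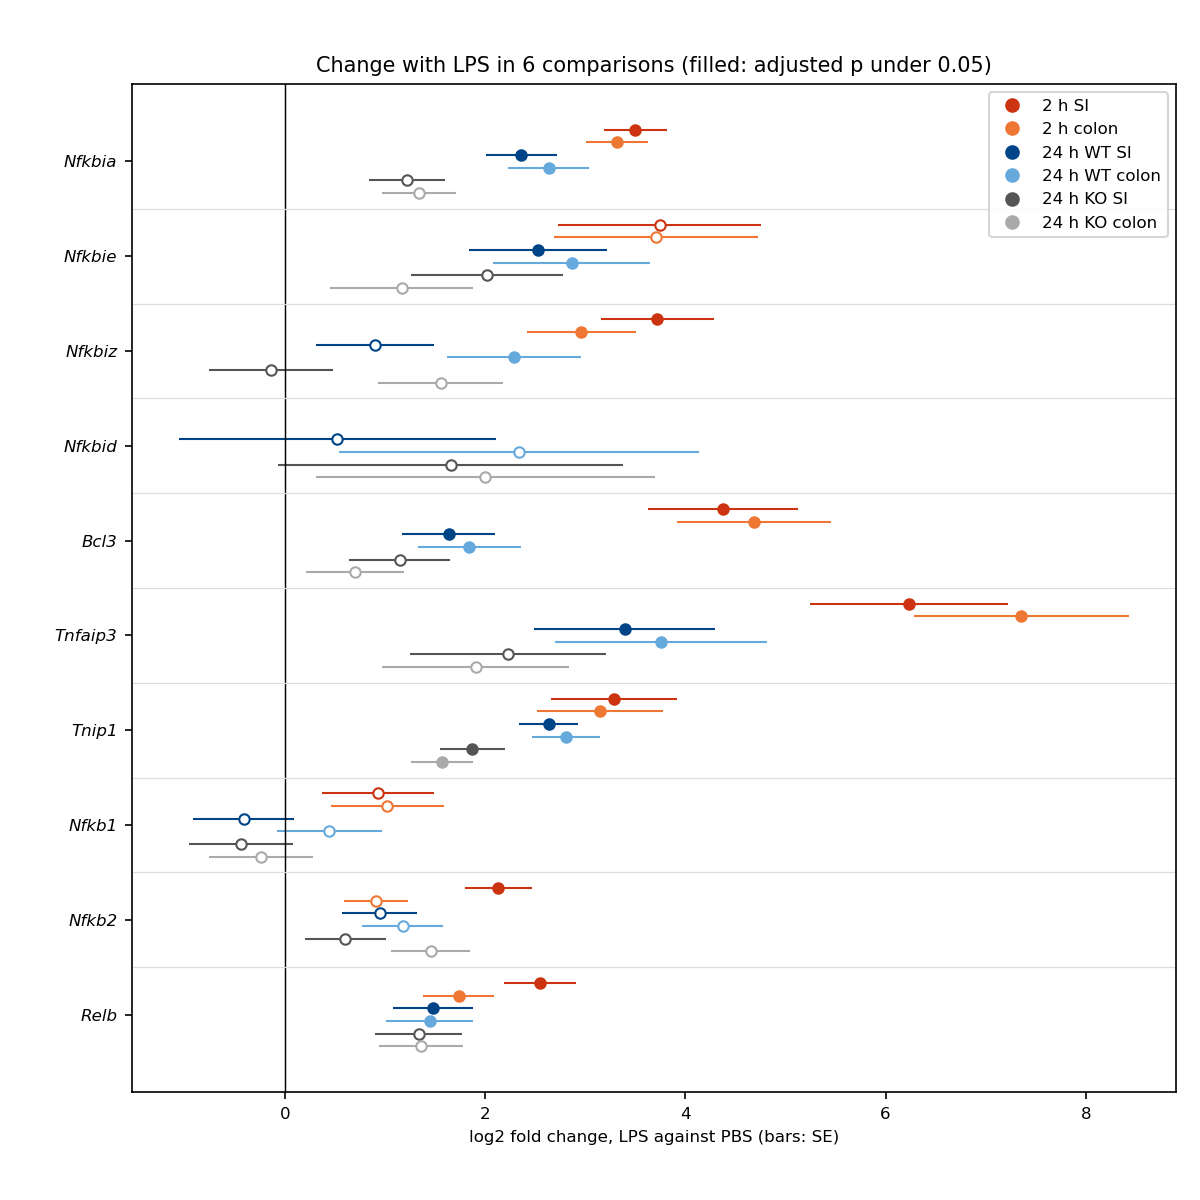
Log2 fold change of each member with LPS against PBS in the 6 comparisons, with bars of 1 SE; filled points have an adjusted p under 0.05. Nfkbid at 2 h is left out because its PBS libraries had no counts. Called changes lie between 1.45 and 7.35, and the knockout points are filled for Tnip1 alone.

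Whether the genotype changed the LPS response was tested as an interaction, the knockout change minus the wild-type change. The knockout log2 fold change was the smaller for 9 of 10 members in each region, which is a description, since no member passed the interaction test. The exceptions were Nfkbid in small intestine and Nfkb2 in colon, and signs of small interactions moved with the settings: Nfkb2 in colon was positive in 7 of 9 alternatives and Nfkbid there in 1 of 9, and in small intestine Nfkb1 was positive in 3 of 8 and Nfkbie and Relb in 1 of 8 each. In small intestine 0 of 10 members were called by edgeR (background 0%), 1 was under an unadjusted p of 0.05 (background 3.88%), and DESeq2 called 0 (background 0.317%). The colon gave 0 of 10 by edgeR (background 0%), 2 under an unadjusted p of 0.05 (background 13.5%) and 0 by DESeq2 (background 2.27%). For Nfkbia the interaction was -1.15 ± 0.51, adjusted p = 1 in small intestine (95% interval -2.18 to -0.11) and -1.29 ± 0.53, adjusted p = 0.278 in colon (-2.37 to -0.22). Tnip1 had -0.76 ± 0.43, adjusted p = 1 (-1.63 to 0.11) and -1.24 ± 0.44, adjusted p = 0.224 (-2.14 to -0.34). At the other end Relb had -0.14 ± 0.59, adjusted p = 1 (-1.34 to 1.05) and -0.09 ± 0.60, adjusted p = 0.98 (-1.31 to 1.13), intervals that include 0 and differences beyond 1 in either direction. Without mouse 3 the interactions were -1.08, adjusted p = 1 for Nfkbia and -0.55, adjusted p = 1 for Tnip1 in small intestine, and -1.39, adjusted p = 0.297 and -1.20, adjusted p = 0.288 in colon. Without the 4 high-marker colon libraries the colon values were -1.91, adjusted p = 0.195 and -1.27, adjusted p = 0.283. In mice numbered 11 and above alone no member passed in either region, with 0 of all genes called in small intestine and 25 in colon.

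After LPS, knockout and wild-type libraries were also compared directly. In small intestine the genotypes were separate for Nfkbia, Nfkbiz and Tnip1, 3 of 10 members, against 2.82% of all genes, with the knockout lower. The LPS levels of these genes are given above, and for Nfkbiz they were 244, 212, 129.5, 116 and 142 CPM in the knockout. Differences were -0.97 ± 0.37, adjusted p = 0.489 for Nfkbia, -0.97 ± 0.31, adjusted p = 0.368 for Tnip1 and -0.94 ± 0.62, adjusted p = 0.785 for Nfkbiz, none of them past the threshold. Mouse 3 had the highest wild-type Tnip1 level (211 CPM), and without that mouse the differences were -0.92, adjusted p = 0.735 for Nfkbia, -0.77, adjusted p = 0.735 for Tnip1 and -1.01, adjusted p = 0.917 for Nfkbiz. Marker sums beside this, knockout against wild type, had medians of 1986 against 2696 CPM for glia and 1219 against 688 CPM for macrophages, with 1541 to 9411 against 1735 to 4293 CPM and 278 to 2407 against 308 to 1223 CPM as ranges. In either list 0 markers were called by edgeR and 1 was under an unadjusted p of 0.05, while DESeq2 called 1 glial marker lower and 1 macrophage marker higher. The medians of other lists were 148 against 776 CPM for neutrophil (8.52 to 1834 against 7.41 to 841 as ranges), 1218 against 2732 CPM for neuron, 2.97 against 45.2 CPM for lymphocyte, 282 against 525 CPM for endothelial, 2385 against 3499 CPM for fibroblast, 792 against 1073 CPM for smooth-muscle, 115 against 55.8 CPM for epithelial and 549 against 188 CPM for mesothelial markers. In those lists 0 markers were called by edgeR or DESeq2 and 0 were under an unadjusted p of 0.05, and the part of these cells in the member differences was not tested. Of the members, edgeR called 0 of 10 (background 0.0134%), 2 were under an unadjusted p of 0.05 (background 7.63%), and DESeq2 called 0 (background 1.17%). In mice numbered 11 and above alone no member was called, with 23 of all genes called.

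In LPS-treated colon 9 of 10 members had a lower fitted level in the knockout, but no pair of groups was separate (0 of 10, against 3.15% of all genes). The library of mouse 8 was the lowest wild-type library for 8 of the members. That of mouse 5, with 0 Gpr37 counts, was the highest for all 10, at 3068 CPM for Nfkbia, 229 for Nfkbie and 277 for Tnip1. Without the library of mouse 5 edgeR called no member. By edgeR 0 of 10 were called (background 0.429%), 3 were under an unadjusted p of 0.05 (background 16.4%), and DESeq2 called those 3, Nfkbia, Nfkbie and Tnip1 (background 5.3%). The edgeR differences were -1.19 ± 0.32, adjusted p = 0.0751 for Tnip1, -1.21 ± 0.38, adjusted p = 0.131 for Nfkbia and -2.23 ± 0.76, adjusted p = 0.155 for Nfkbie. Without the libraries high in epithelial or lymphocyte markers, an alternative chosen after seeing the data, edgeR called Nfkbie (-2.81, adjusted p = 0.0357) and Tnip1 (-1.40, adjusted p = 0.0332) as lower, and Nfkbia missed (-1.59, adjusted p = 0.0514). That fit called 64 of all genes, as did the main fit. Without mouse 3 no member was called (Tnip1 -1.14, adjusted p = 0.128), and 14 of all genes were. In mice numbered 11 and above alone edgeR called no member, with 334 of all genes called. Mice 3, 5 and 8 of the wild type and mouse 2 of the knockout were numbered 10 and below. Epithelial markers summed to 4.55 to 4708 CPM in wild-type and 0.161 to 249.9 CPM in knockout LPS colon, and lymphocyte markers to 0 to 2646 and 0 to 26.5 CPM. By edgeR 0 of 5 epithelial markers were called in this comparison (1 under an unadjusted p of 0.05, 0 by DESeq2) and 0 of 5 tested lymphocyte markers (3 under an unadjusted p of 0.05, 2 called lower by DESeq2), with Cd3g, Ms4a1 and Cd79a at 0 in the knockout libraries, and the part of these cells in the difference was not tested. Median sums of other lists, knockout against wild type, were 15289 against 3097 CPM for fibroblast, 3307 against 888 CPM for smooth-muscle, 1232 against 303 CPM for endothelial, 482 against 723 CPM for neuron, 196 against 69.5 CPM for neutrophil and 287 against 395 CPM for macrophage markers. None of these was called by edgeR, with 2 endothelial markers and 1 of each other list under an unadjusted p of 0.05, and DESeq2 called 1 endothelial and 1 neutrophil marker higher and 1 neuronal marker lower.

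After PBS the difference between genotypes ran from -0.60 to 0.37 on the log2 scale in small intestine and from -0.61 to 0.50 in colon. For Nfkbia the 95% intervals were -0.54 to 0.90 and -0.67 to 0.84, and for Tnip1 -0.82 to 0.40 and -0.58 to 0.69. By edgeR 0 of 10 members were called in small intestine (background 0%), with 0 under an unadjusted p of 0.05 (background 1.72%) and 0 by DESeq2 (background 0.295%). PBS-treated colon gave 0 of 10 as well (background 0%), with 0 under an unadjusted p of 0.05 (background 4.22%) and 0 by DESeq2 (background 0.484%). Without the 4 libraries high in epithelial or lymphocyte markers no member was called there either, and 1 of all genes was. No member passed edgeR's test of the knockout response between regions (0 of 10, background 0%), with 0 under an unadjusted p of 0.05 (background 4.13%) and 0 by DESeq2 (background 0.45%).

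**Figure D4:**
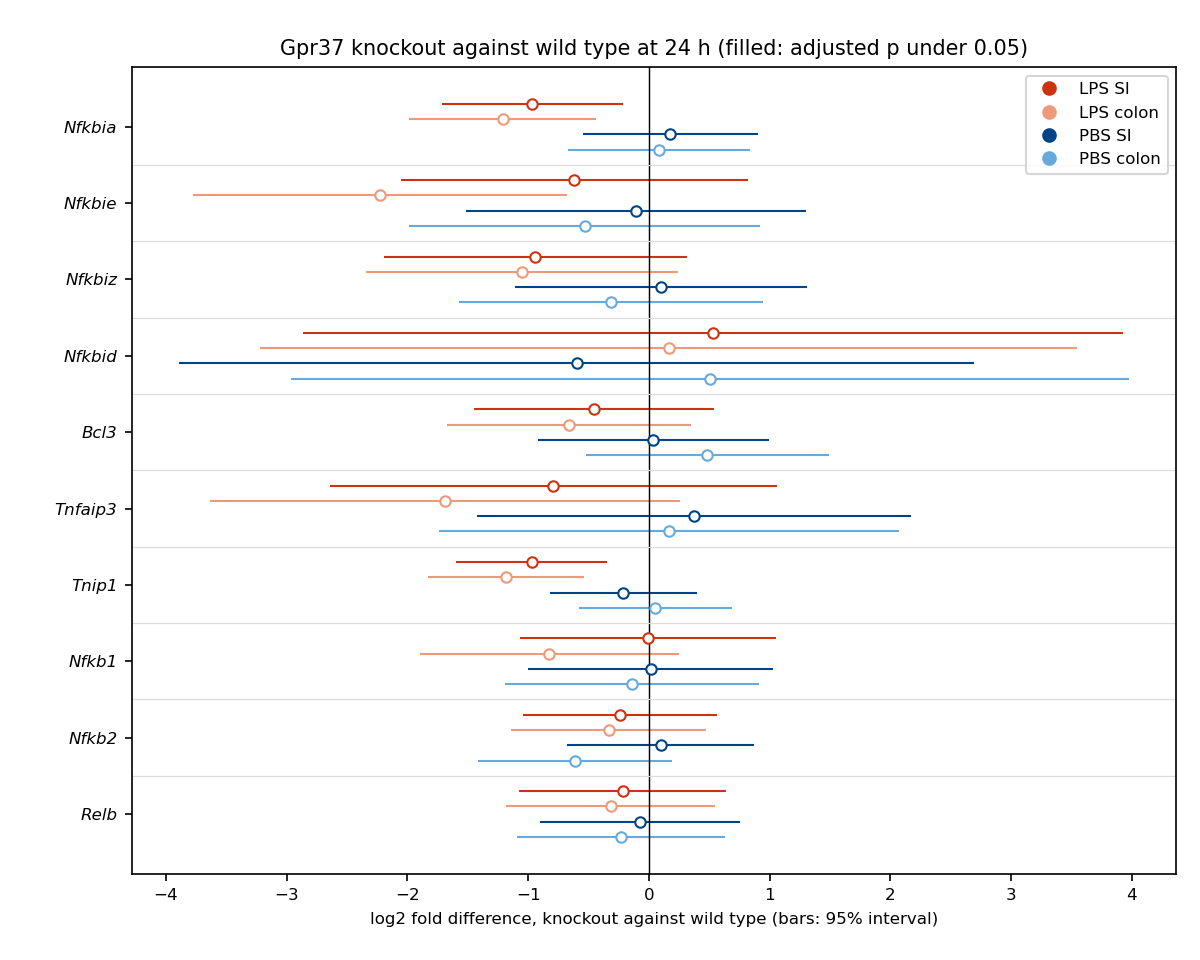
Log2 fold difference of each member, Gpr37 knockout against wild type, at 24 h after LPS or PBS in each region, with bars of the 95% interval; a filled point would mark an adjusted p under 0.05, and there is none. After LPS 9 of 10 members in colon lie left of 0, and the widest intervals are those of Nfkbid.

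Other genes of the pathway were described from lists of textbook members. Of all genes 1.08% and 0.74% were called higher at 2 h, small intestine first. At 24 h these shares were 4.18% and 3.96% in the wild type and 0.53% and 0.637% in the knockout. Of the 16 other subunits and kinases 2 were called higher in small intestine at 2 h, Nfkbib (2.31 ± 0.38) and Rela (1.83 ± 0.33). The colon had 0 of 16 called by edgeR, 2 under an unadjusted p of 0.05 and 1 called by DESeq2. Nfkbib encodes IkB-beta and Rela the main activating subunit. The list's median log2 fold change was 0.24 in small intestine and 0.22 in colon. The 10 members had 3.61 and 3.23, counting the fitted value of Nfkbid, whose PBS libraries had no counts, and all genes -0.02 and 0.00. At 24 h Nfkbib and Rela were called in both wild-type regions (1.78 and 1.32 in small intestine, 2.09 and 1.53 in colon), with Rel (3.47 ± 1.07), a lymphoid-enriched subunit gene, added in colon. The knockout had 1 of 16 called in colon, Nfkbib (1.51 ± 0.32), and 0 of 16 in small intestine by edgeR, where 1 was under an unadjusted p of 0.05 and 1 was called by DESeq2.

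Receptors and adaptors of the LPS and TNF signals had 3 of 18 called higher in each region at 2 h, Cd14 (4.63 ± 0.61), Tlr2 (3.33 ± 0.59) and Myd88 (2.75 ± 0.41) in small intestine and Tlr2 (3.18 ± 0.58), Cd14 (3.05 ± 0.58) and Birc2 (2.25 ± 0.37) in colon. Cd14 encodes the LPS co-receptor, Tlr2 a receptor for bacterial lipoproteins, Myd88 the adaptor shared by most Toll-like receptors and Birc2 a ubiquitin ligase of TNF receptor complexes. At 24 h 6 of 19 were called higher in wild-type small intestine and 2 of 19 in wild-type colon, led by Cd14 (2.82 ± 0.64) and Tlr2 (3.33 ± 0.64). These counts stand beside 4.18% and 3.96% of all genes called higher. The knockout had 1 of 19 in small intestine, Cd14 (3.06 ± 0.73), and 0 of 19 in colon by edgeR, where 5 were under an unadjusted p of 0.05 and DESeq2 called 3. The list's median log2 fold change was 0.99 and 0.22 at 2 h, 0.29 and 0.61 in the wild type at 24 h and 0.30 and 0.75 in the knockout, small intestine first. Further negative regulators had 4 of 19 called higher in small intestine at 2 h, led by Tnip3 (8.93 ± 1.29), a relative of Tnip1, and 3 of 19 in colon, where Tnip3 rose by 5.18 ± 1.06. At 24 h Irak3 (3.34 ± 0.45), which encodes an inhibitory kinase of Toll-like receptor signalling, was the single call in wild-type small intestine. That is 1 of 19, near the 4.18% of all genes called higher. Irak3 was also called in knockout small intestine (2.06 ± 0.49). Wild-type colon had 3 called higher, led by Zc3h12a (3.97 ± 0.94), and 1 lower, Rnf11 (-1.09 ± 0.24). Knockout colon had 0 of 19 by edgeR, 4 under an unadjusted p of 0.05 and 1 called by DESeq2. Medians of this list were 0.39 and 0.66 at 2 h, -0.04 and 0.40 in the wild type at 24 h and 0.11 and 0.20 in the knockout, small intestine first, while the median of all genes lay between -0.13 and 0.00 in the 6 comparisons. In LPS-treated colon Tax1bp1 (-1.07 ± 0.24), an adaptor of the Tnfaip3 complex, was the single call of this list between genotypes, lower in the knockout.

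The list of target genes had the largest medians among the pathway lists in all 6 comparisons. At 2 h 17 of 30 were called higher in small intestine and 15 of 30 in colon, with medians of 4.73 and 4.21, led by Csf3 (10.65 ± 2.15), Cxcl5 (9.75 ± 2.07) and Cxcl1 (9.33 ± 1.19) in small intestine and Csf3 (12.45 ± 2.23), Il6 (10.50 ± 0.91) and Cxcl5 (9.31 ± 1.91) in colon. These encode a granulocyte growth factor, neutrophil-attracting chemokines and a cytokine. The 2 h counts stand beside 1.08% and 0.74% of all genes called higher. At 24 h the counts were 16 of 32 in wild-type small intestine, 14 of 32 in wild-type colon, 8 of 32 in knockout small intestine and 10 of 32 in knockout colon. Of all genes 4.18%, 3.96%, 0.53% and 0.637% were called higher in that order. The list's medians were 2.62, 2.58, 2.28 and 2.39, beside member medians of 1.56, 2.32, 1.28 and 1.41. Such lists were chosen with earlier results of these data known and their direction is no independent evidence.

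The genes most like Nfkbia were those with the smallest root mean square difference of log2 fold change over the 6 LPS comparisons, among 9803 genes outside the members whose average log2 CPM reached 3 in both time tables. They were Cebpb (0.43), Runx1 (0.45), Arid5a (0.45), Map3k8 (0.47) and Trex1 (0.51). Cebpb, which encodes a transcription factor of the acute-phase response, had log2 fold changes of 3.89 and 3.44 at 2 h in small intestine and the colon, 2.03 and 2.39 in the wild type at 24 h, and 0.98 and 0.51 in the knockout. Arid5a, which encodes an RNA-binding protein that stabilises Il6 transcripts, had 4.02 and 2.76, 2.26 and 2.77, and 0.53 and 1.72 in the same order. The 2 wild-type comparisons and the 2 knockout comparisons at 24 h share mice between regions.

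Untreated mice show the members at rest, by plexus and region. Per kilobase of merged exons (a scale that allows levels of different genes to be set side by side), Nfkbia led in every untreated group, at 211 ± 69.9 CPM per kilobase (SD, n = 6) in small-intestinal and 194 ± 50.7 (n = 5) in colonic myenteric plexus. Next in small intestine came Nfkbiz at 9.29 ± 5.78, Nfkb2 at 9.16 ± 2.3, Relb at 6.97 ± 3.22, Tnip1 at 6.14 ± 3.05 and Nfkbie at 4.88 ± 3.91, neighbours that lay within their SDs. Bcl3 at 3.35 ± 0.767 and Nfkb1 at 3.06 ± 0.681 followed, and Tnfaip3 at 0.968 ± 0.698 and Nfkbid at 0.607 ± 0.897 were last. With LPS at 2 h Tnfaip3 stood in the fourth place in small intestine, at 61.4 ± 11.6 CPM per kilobase (n = 4) against 0.766 ± 0.518 with PBS, while Nfkbia stayed in the lead at 1978 ± 355 against 175 ± 66.4. Merged exon length is that of the annotation and not of the transcripts made in these cells.

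**Figure D5:**
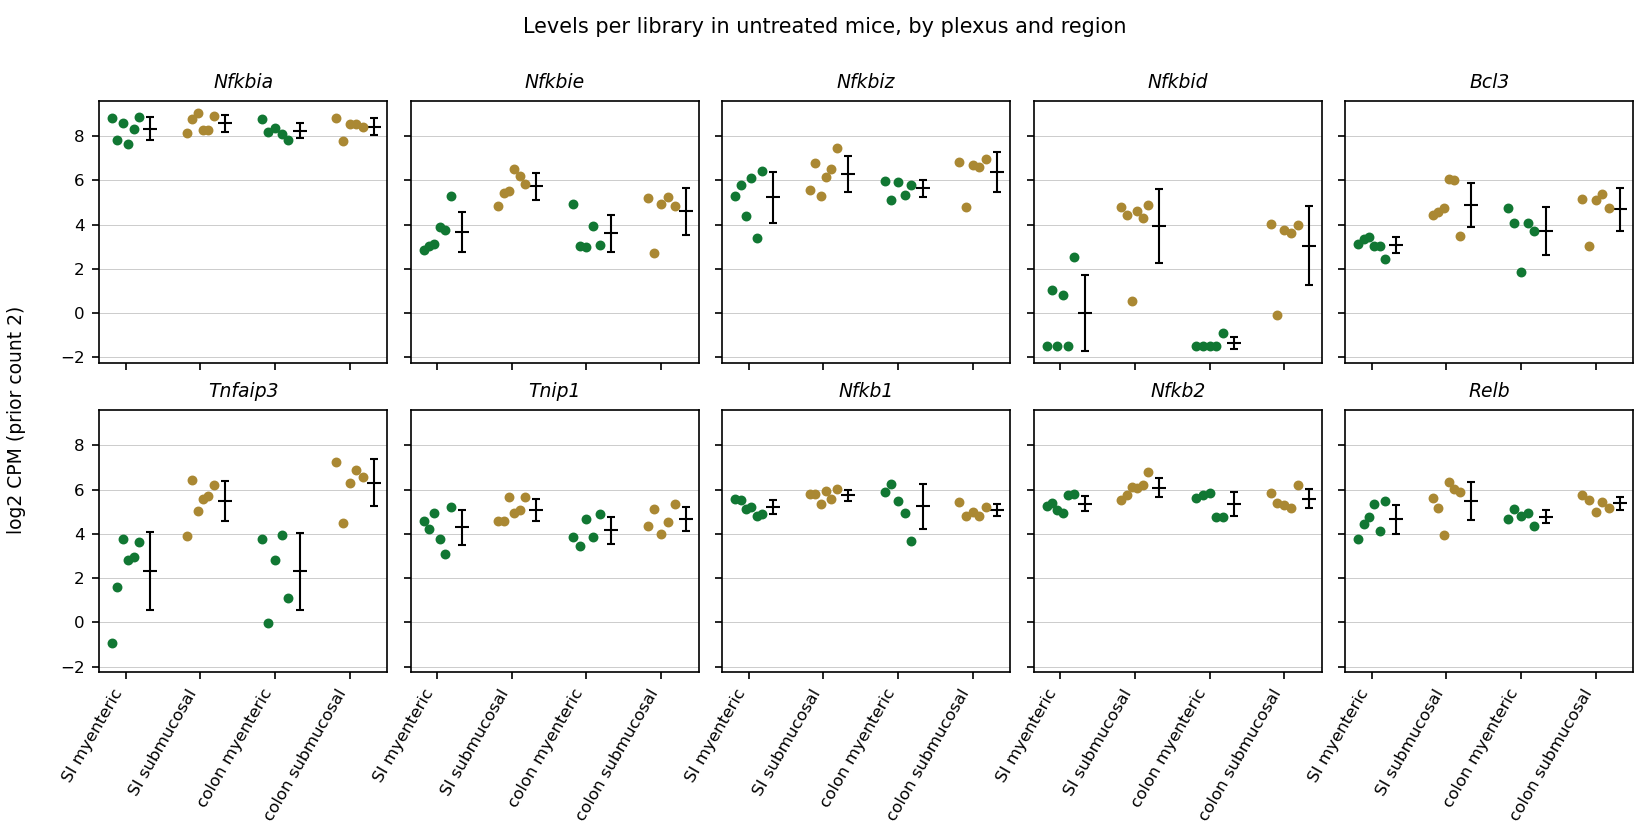
Level of each member in log2 CPM (prior count 2) in each untreated library, by plexus (green, myenteric, and brown, submucosal) and region (SI, small intestine); black marks are the mean and SD of 5 or 6 libraries. Tnfaip3 is higher in the submucosal plexus of both regions without overlap, and the Nfkbia ranges overlap between the 4 groups.

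In the submucosal plexus 2 of 10 members were called higher than in the myenteric plexus of the colon and 6 of 10 in small intestine, and none was lower. These shares stand beside 21.8% of all genes called in colon (10.7% higher) and 43.5% in small intestine (22.3% higher). Tnfaip3 was called in both, at 13, 0.604, 6.68, 15.2 and 1.75 CPM in colon myenteric and 152, 22.4, 78.1, 119 and 95.2 CPM in colon submucosal libraries (3.63 ± 0.79, adjusted p = 0.00295). In small intestine Tnfaip3 was 0.154 at the lowest, 7.06 at the median and 13.2 CPM at the highest in the myenteric plexus and 14.6 at the lowest, 49.7 at the median and 85.8 CPM at the highest in the submucosal plexus (2.85 ± 0.70, adjusted p = 0.0024). Nfkbid had 1 count in all over the 5 colon myenteric libraries and 15.9, 0.57, 13, 12.1 and 15.2 CPM in the submucosal libraries, a difference that passed the test (adjusted p = 0.00148). Small-intestinal Nfkbid differed by 3.81 ± 1.01, adjusted p = 0.0041, Bcl3 by 2.10 ± 0.48, adjusted p = 0.00131 and Nfkbie by 1.92 ± 0.48, adjusted p = 0.0028. The subunits Relb and Nfkb2 differed there by 0.91 ± 0.33, adjusted p = 0.0289 and 0.74 ± 0.26, adjusted p = 0.0238, calls that were kept when 1 library was left out in 6 and 9 of 12 cases. For Relb the call was also lost in the fit of the compared groups alone (adjusted p = 0.0842), and for Nfkbid the change was 5.12 without myenteric replicate 6 and 4.46 with the replicate number as a block. Nfkbia did not pass in either region (0.18 ± 0.26, adjusted p = 0.674 in colon and 0.21 ± 0.24, adjusted p = 0.5 in small intestine).

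The plexuses differed in cell content at the same time. All 6 lymphocyte markers were called higher in the submucosal plexus of both regions, summing to 728 to 44950.0 CPM against 3.07 to 296 CPM in colon (Cd3e and Cd3g at 0 in the myenteric plexus) and to 14072 to 131765 against 3.33 to 1089 CPM in small intestine. Macrophage markers were called higher in 9 of 10 cases in colon (105 to 4814 against 84 to 496 CPM) and 10 of 10 in small intestine (2238 to 11602 against 144 to 2127 CPM), with none at 0 in all libraries of a group. Of 7 glial markers 3 were called lower in colon and 7 in small intestine, where they summed to 522 to 1949 CPM against 8799 to 13644 CPM. Epithelial markers were called higher in 2 of 5 cases in colon (1164 to 4489.6 against 3.76 to 1341 CPM) and 5 of 5 in small intestine (939.9 to 3995 against 4.9 to 149 CPM). Of 4 neutrophil markers tested in each region 2 were called higher in colon (27 to 94.7 against 0 to 3.68 CPM) and 1 in small intestine (7.41 to 134 against 0 to 30.1 CPM). All 6 smooth-muscle and all 4 mesothelial markers were called lower in both regions, as were 4 of 7 neuron markers in colon and 5 of 7 in small intestine, 3 and 2 of 3 markers of interstitial cells of Cajal, and 1 and 6 of 6 endothelial markers. Submucosal replicate 2 of the colon had the lowest lymphocyte sum, 728 CPM, and the lowest Tnfaip3, Nfkbid, Nfkbie, Nfkbiz, Bcl3 and Nfkbia of its group, and the part of other cells in the plexus differences was not tested.

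Between regions 0 of 10 members were called in the untreated myenteric plexus by edgeR (background 3.19%), 1 was under an unadjusted p of 0.05 (background 16.6%), and DESeq2 called 1 (background 6.64%). That gene in the edgeR test was Nfkbid, with 3 of 6 small-intestinal libraries at 0 and a highest value of 5.42 CPM (adjusted p = 0.0833). The submucosal plexus gave 0 of 10 by edgeR (background 5.18%), 1 under an unadjusted p of 0.05 (background 17.7%) and 0 by DESeq2 (background 7.63%). For Nfkbia the region differences were -0.12 ± 0.25 (95% interval -0.64 to 0.40) in the myenteric and -0.16 ± 0.25 (-0.68 to 0.37) in the submucosal plexus.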

How the data were processed

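The 2 tables the authors deposited hold raw counts, whole numbers for each gene symbol with totals that differ between libraries, and were used unchanged. Per the submitters' processing notes, Trim Galore 0.4.4, STAR 2.5.3, DESeq2 and the GRCm38 build were used, with no roles given, and the read counter and the use of strand are not given in the sources used here, so reads of overlapping antisense genes cannot be told apart. Per the labels' protocols, libraries were made with Smart-seq2, which carries no molecular identifiers, so floors of 3 counts cover counting error only.

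Each experiment was fitted in edgeR 4.0.16 (R 4.3.3) with all its groups in 1 quasi-likelihood model after filterByExpr and TMM, which left 14090 untreated, 13107 early and 14903 late genes. Contrasts were two-sided, with Benjamini-Hochberg adjustment over all genes and calls under 0.05. The SE is the log2 fold change over the root of its F statistic, and 95% intervals use the total degrees of freedom. Where no library of a group had a count, the mean of the other group was set against 3 counts per library, which gives no strict bound. Alternatives were RLE size factors, no filter, sex as a covariate, the DESeq2 1.42.0 Wald test, a fit of the compared groups alone, a replicate block, a division of the mice by number, and each library left out. Leaving out mouse 3, or 4 libraries high in epithelial or lymphocyte markers, was chosen after seeing the data.

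The members, the lists and the rule for named genes were chosen with earlier results of these data known. All 10 members are named, with up to 3 called genes of the largest absolute change per list and LPS comparison, except that the list's single call between genotypes, the changes of Nfkbib, Rela, Tnip3 and Irak3 in further comparisons and the called negative regulator that fell were named after their values were seen. Lists with their results in the text are members, other subunits and kinases, receptors and adaptors, other negative regulators and targets, with marker lists for other cells. Across 143 pairs of replicates none were identical (chi-square per degree of freedom 16.5 to 381). At 24 h the mouse numbers show that 15 of 22 mice gave both regions, so the mouse pairs regions there, with same-mouse correlations of residuals of -0.04 to 0.24. Promoters are from RefSeq (GRCm38.p6) and gene models from GENCODE on GRCm38. Some genes and the full name of the reporter allele are not reported here. Figures were drawn with matplotlib 3.10.9.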

Additional observations from a re-analysis of the deposited data

Results flagged for a closer look

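In 14 of 158 groups of 4 to 10 libraries tested, the highest or lowest library stood apart from the others on the log2 CPM scale by more than Dixon's 95% critical value, where chance gives about 1 in 20. The log2 values below use a prior count of 2.

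Submucosal replicate 2 of untreated colon was lowest in 4 genes of the IkB and nuclear IkB-like proteins. These were Bcl3 (7.79 CPM, log2 3.03, beside 26.5 to 40.9 CPM in the other 4 libraries), Nfkbid (0.57 CPM, log2 -0.10, beside 12.1 to 15.9 CPM), Nfkbie (6.27 CPM, log2 2.73, beside 28.2 to 37.7 CPM) and Nfkbiz (27.7 CPM, log2 4.81, beside 96 to 125 CPM). Its lymphocyte marker sum of 728 CPM was also the lowest of that group. In the other untreated groups Nfkbid was low in replicate 3 of small-intestinal submucosal plexus (1.08 CPM, log2 0.53, beside 19.1 to 29.6 CPM) and high by a single count in replicate 5 of colon myenteric plexus (0.175 CPM, log2 -0.90, with 0 in the other libraries).

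At 2 h, replicate 3 of LPS colon was highest in Nfkbid (5.34 CPM, log2 2.52, with 0 in the other libraries) and in Relb (173 CPM, log2 7.44, beside 95.2 to 96.3 CPM). Replicate 2 of PBS small intestine was lowest in Tnfaip3, with no count (0 CPM, log2 -1.28, beside 6.85 to 8.26 CPM).

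At 24 h, mouse 2 was lowest among knockout LPS colon libraries in the subunit gene Nfkb1 (1.07 CPM, log2 0.37, beside 31.1 to 44.3 CPM) and the inhibitor gene Nfkbie (0.804 CPM, log2 0.03, beside 22 to 26.6 CPM). Mouse 8 was lowest in Nfkb1 among wild-type LPS colon libraries (5.07 CPM, log2 2.40, beside 46.9 to 75.9 CPM). Mouse 10 was lowest in Nfkbie among knockout LPS small-intestinal libraries (9.3 CPM, log2 3.25, beside 34.7 to 43.6 CPM). Mouse 7 was lowest in Relb among knockout PBS colon libraries (1.8 CPM, log2 1.01, beside 19.5 to 35.7 CPM).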

How the results depend on the processing

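Counts of called members moved by over 1.5 times in these alternatives. In fits of the compared groups alone they were 4 for LPS in wild-type colon, 0 in knockout colon and 1 for plexus in untreated colon. In knockout small intestine that fit called 1 member, which was not Tnip1. With DESeq2 they were 3 for LPS in knockout small intestine, 4 in knockout colon, 3 for genotype in LPS-treated colon and 1 for region in the untreated myenteric plexus. In mice numbered 11 and above, knockout small intestine gave 3 (92 of all genes, against 107 in the main fit). Without the 4 libraries high in epithelial or lymphocyte markers, genotype in LPS-treated colon gave 2 (64 of all genes, as in the main fit). The cause of these moves was not tested, except that fits of fewer groups have fewer libraries. RLE size factors, no filter and sex as a covariate left every count of called members the same, and no called change reversed. Uncalled genotype interactions near 0 did change sign, that of Nfkb2 in colon in 2 of 9 alternatives and that of Nfkb1 in small intestine in 3 of 8. Over all genes, DESeq2 called 280 against 144 by edgeR for LPS at 2 h in small intestine, 301 against 102 in colon, 1894 against 1069 and 2282 against 1186 for wild-type mice, 537 against 107 and 480 against 107 for knockout mice (small intestine first) and 766 against 64 for genotype in LPS-treated colon. Fits of the compared groups alone gave 63 in colon at 2 h, 1704 and 412 for wild-type mice, 47 and 7 for knockout mice and 0 for genotype in LPS-treated colon. For plexus in untreated colon they gave 1902 against 3069.

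Leaving out 1 library gave 7 to 7 members at 2 h in small intestine, 4 to 6 in colon, 4 to 6 in wild-type small intestine, 2 to 8 in wild-type colon, 1 to 1 in knockout small intestine and 1 to 2 in knockout colon, where 2 came without LPS replicate 1 (mouse 11). Over all genes these fits called 107 to 133 and 65 to 108 at 2 h, small intestine first. They called 641 to 1057 and 551 to 1324 in the wild type and 46 to 352 and 28 to 191 in the knockout. For plexus the member ranges were 2 to 3 in colon (2243 to 4045 of all genes) and 4 to 8 in small intestine (5581 to 5976). Genotype in LPS-treated colon gave 0 to 1 (7 to 141 of all genes), with 1 without wild-type replicate 5 (mouse 8). Every other comparison gave 0 to 0 members.

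Same-numbered samples of the untreated and 2 h experiments did not correlate above 0.1 in every pair, nor did the 24 h pairs, which the labels tie to 1 mouse each, so whether the numbers pair the untreated and 2 h samples was not settled (mean r of same-numbered pairs 0.02 to 0.18). With the replicate block 7 members were called at 2 h in small intestine, 5 in colon and 0 for the interaction, and 2, 7, 0 and 0 in the untreated comparisons. Over all genes these fits called 153, 88 and 0, and 2780, 6302, 246 and 797. With the mouse as a block the region interactions at 24 h gave 0 and 0. Depth limits Nfkbid, where 3 counts equal up to 1.46 CPM at 2 h.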
